A study of Mus musculus with 6 samples.

Results

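Integrins are cell surface receptors made of 1 alpha and 1 beta subunit, and 10 mouse genes for such subunits were followed through the weeks after a photothrombotic stroke. The genes were chosen by name, as the subunits carried mainly by leukocytes (Itgam, Itgax, Itgal, Itgb2 and Itga4, 5 genes) and the subunits that mainly bind extracellular matrix (Itga5, Itgav, Itgb1, Itgb3 and Itgb5, 5 genes). Under their own gene identifiers, 9 of the 10 had a value, among 15441 genes with a value in any library. Itgam was the exception, and its locus is described by position below.

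RNA was taken from the whole ipsilateral cortex of young adult male C57/BL6J mice, and the RNA of 3 mice was pooled into 1 library for each of 6 groups. In the stroke groups, Rose Bengal was injected and the sensorimotor cortex was illuminated through the skull, which clots the vessels under the light, and tissue was taken at day 1, 3, 7, 14 or 28. The control group was sham-operated mice, which received no illumination and were taken at day 7 post-operation. No transgene or targeted allele is named for any group. With 1 library per group no difference has a replicate check, so no test was made and every comparison below is between pooled libraries.

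The beta2 subunit Itgb2 pairs with Itgal (LFA-1), Itgam (Mac-1, also called CR3) or Itgax (CR4), and these receptors hold leukocytes and microglia to Icam proteins, fibrin and complement-coated particles. Itga4 pairs with beta1 or beta7 and binds Vcam1 and fibronectin. Itgb1 is the shared beta subunit of most laminin, collagen and fibronectin receptors, Itga5 forms the fibronectin receptor with it, and Itgav joins Itgb1, Itgb3, Itgb5, Itgb6 or Itgb8 to bind proteins with an RGD motif, among them vitronectin, osteopontin and latent TGF-beta.

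Levels were FPKM, fragments corrected for the length of the transcript and the size of the library, and the files list them for single events, such as the first or last exon of a transcript or an exon that is skipped. The level of a gene was the largest of its summed starts, its summed ends and any single event. Differences from sham were taken as log2((FPKM + 0.1)/(sham FPKM + 0.1)), and a gene counted as higher or lower when this log2 ratio was at least 1 in size and its level was at least 1 FPKM in either library. Events at 0 are left out of the files, so a gene without events is called not listed, and no ratio is printed for it when it was not listed in sham, although such a gene, taken as 0, enters the counts and medians. The libraries listed between 83501 (day 14) and 99187 (day 7) events, and depth per library is unknown.

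To set the upstream sequence of both groups side by side, the stretches before the start of 2 leukocyte and 2 matrix genes are printed from the RefSeq GRCm38.p6 promoter table, from 250 to 11 bases before that start, 5′ to 3′ on the gene's strand. Itgam (chr7:128062390-128062629, plus strand) and Itgax (chr7:128129300-128129539, plus strand) are leukocyte genes, and Itgb1 (chr8:128685404-128685643, plus strand) and Itgb5 (chr16:33829415-33829654, plus strand) are matrix genes. Capitals mark the motifs GAGGAA, the core that the myeloid factor PU.1 binds, and GGGCGG, the Sp1 box, on either strand.
Itgam: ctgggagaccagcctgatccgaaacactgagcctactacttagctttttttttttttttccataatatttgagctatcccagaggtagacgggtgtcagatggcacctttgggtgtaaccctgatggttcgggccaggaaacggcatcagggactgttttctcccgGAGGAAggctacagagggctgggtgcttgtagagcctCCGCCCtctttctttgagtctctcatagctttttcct
Itgax: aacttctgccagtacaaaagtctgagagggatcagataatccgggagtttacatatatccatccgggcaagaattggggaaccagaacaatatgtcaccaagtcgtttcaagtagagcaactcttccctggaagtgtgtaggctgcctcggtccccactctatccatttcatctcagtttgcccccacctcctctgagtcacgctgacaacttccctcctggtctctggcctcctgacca
Itgb1: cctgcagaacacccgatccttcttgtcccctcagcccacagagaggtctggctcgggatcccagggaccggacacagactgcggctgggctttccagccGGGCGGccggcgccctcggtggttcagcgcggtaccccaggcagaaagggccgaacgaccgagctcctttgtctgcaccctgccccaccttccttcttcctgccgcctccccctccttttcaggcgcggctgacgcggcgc
Itgb5: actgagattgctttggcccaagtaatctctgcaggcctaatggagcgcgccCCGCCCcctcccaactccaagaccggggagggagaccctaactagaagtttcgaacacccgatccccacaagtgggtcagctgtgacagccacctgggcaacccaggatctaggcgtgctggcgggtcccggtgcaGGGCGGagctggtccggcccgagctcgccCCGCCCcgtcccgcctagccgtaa

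The table held upstream sequence for 7 of the 10 genes, and Itgal, Itgb2 and Itgb3 had no entry. In Itgam, GAGGAA lay 84 to 79 bases before the start and GGGCGG lay 47 to 42 bases before it on the opposite strand. Itgb1 held 1 GGGCGG, 151 to 146 bases before the start, Itgb5 held 3, and Itgax held neither motif. GAGGAA was also present in Itga5 and Itgav, and GGGCGG in Itga4 and Itga5. Of 32851 upstream stretches of the same length, 22.3% held GAGGAA and 31.3% held GGGCGG on either strand, and 2 further motifs that were searched, CCGGAA (11.2%) and TATAAA (12.1%), were in none of the 7. The C and G content was 50.0% in Itgam and 50.4% in Itgax, 54.6% in Itga5, and between 63.3% and 68.3% in Itga4, Itgav, Itgb5 and Itgb1, against a median of 52.1%. These are descriptions of letters, and no binding was measured.

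Itgb2 (ENSMUSG00000000290, chr10:77530252-77565708, mm10) had the largest difference from sham of the genes listed in sham. Its level was 1.47 FPKM in sham, 2.52 on day 1, 9.60 on day 3, 12.8 on day 7, 7.42 on day 14 and 2.05 on day 28. The level was therefore highest on day 7, and the day 28 library was closest to sham. The log2 ratio to sham was 0.74 on day 1, 2.63 on day 3, 3.04 on day 7, 2.26 on day 14 and 0.46 on day 28. Among all genes tested against sham, this placed Itgb2 at percentile 97.8 on day 3, 97.9 on day 7 and 97.4 on day 14. Its values rest on 1 start and 1 end that match annotated first and last exons, and 7 of its 10 events were listed in all 6 libraries. A form lacking the exon at chr10:77542398-77542486 was listed in the day 3 library (0.791 FPKM) and the day 28 library (0.110 FPKM) and in no other.

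No event carried the identifier of Itgam in any library. The events inside the annotated span of Itgam (chr7:128062640-128118491, plus strand) were listed under the identifier of Gm45700, a processed pseudogene annotated downstream at chr7:128126835-128127181 on GRCm38. Of the 9 events under that identifier, 8 lay inside the span of Itgam, and the start event matched the annotated first exon of Itgam and an end event its last exon. The values below are therefore given for the Itgam locus, an assignment by position made after these values were seen. On day 7 the value includes 0.617 FPKM of transcripts that skip from the gene to an end at chr7:128126808-128128160, which overlaps Gm45700.

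The Itgam locus had 3.92 FPKM in sham, 3.96 on day 1, 17.3 on day 3, 16.8 on day 7, 6.24 on day 14 and 4.64 on day 28. Days 3 and 7 stood far above the other libraries, and day 1 was at the sham level. The log2 ratio to sham was 0.01 on day 1, 2.11 on day 3, 2.07 on day 7, 0.66 on day 14 and 0.24 on day 28. Day 14 separated the chains of Mac-1: Itgb2 was still 5.06 times its sham level there, while the Itgam locus was 1.59 times its own.

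A pair of annotated forms of Itgam differ by 3 bases at the start of exon 14 (chr7:128101634-128101846 in the longer form, starting at 128101637 in the shorter one). The junction is printed from the GENCODE M21 transcripts on GRCm38, from 20 bases before it, with the 3 extra bases in capitals.
Itgam longer form: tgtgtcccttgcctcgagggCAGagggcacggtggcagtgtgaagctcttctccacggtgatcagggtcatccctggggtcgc
Itgam shorter form: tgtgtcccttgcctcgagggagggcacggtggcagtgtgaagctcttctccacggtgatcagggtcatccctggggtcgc

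The longer form had 2.25 FPKM in sham, 1.16 on day 1, 8.65 on day 3, 7.09 on day 7 and 2.20 on day 28, and it was not listed on day 14. The event of the shorter form was listed with nearly the whole value of the locus in every library, so the values of the 2 events overlap and neither can be read as a share of the locus.

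The alpha chains of the other beta2 receptors were at low levels. Itgax (ENSMUSG00000030789, chr7:128129547-128150657), known as CD11c, was not listed in sham or on day 1, and had 0.0923 FPKM on day 3, 1.90 on day 7, 1.47 on day 14 and 0.0196 on day 28. Its annotated first exon was a listed start in the libraries of days 7 and 14 alone. Itgal (ENSMUSG00000030830, chr7:127296260-127335138), the LFA-1 alpha chain, was listed in 3 libraries, with 0.356 FPKM on day 3, 0.735 on day 7 and 0.577 on day 14. Itgal never reached 1 FPKM, and each of its 3 events was listed in at most 2 libraries.

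**Figure D1:**
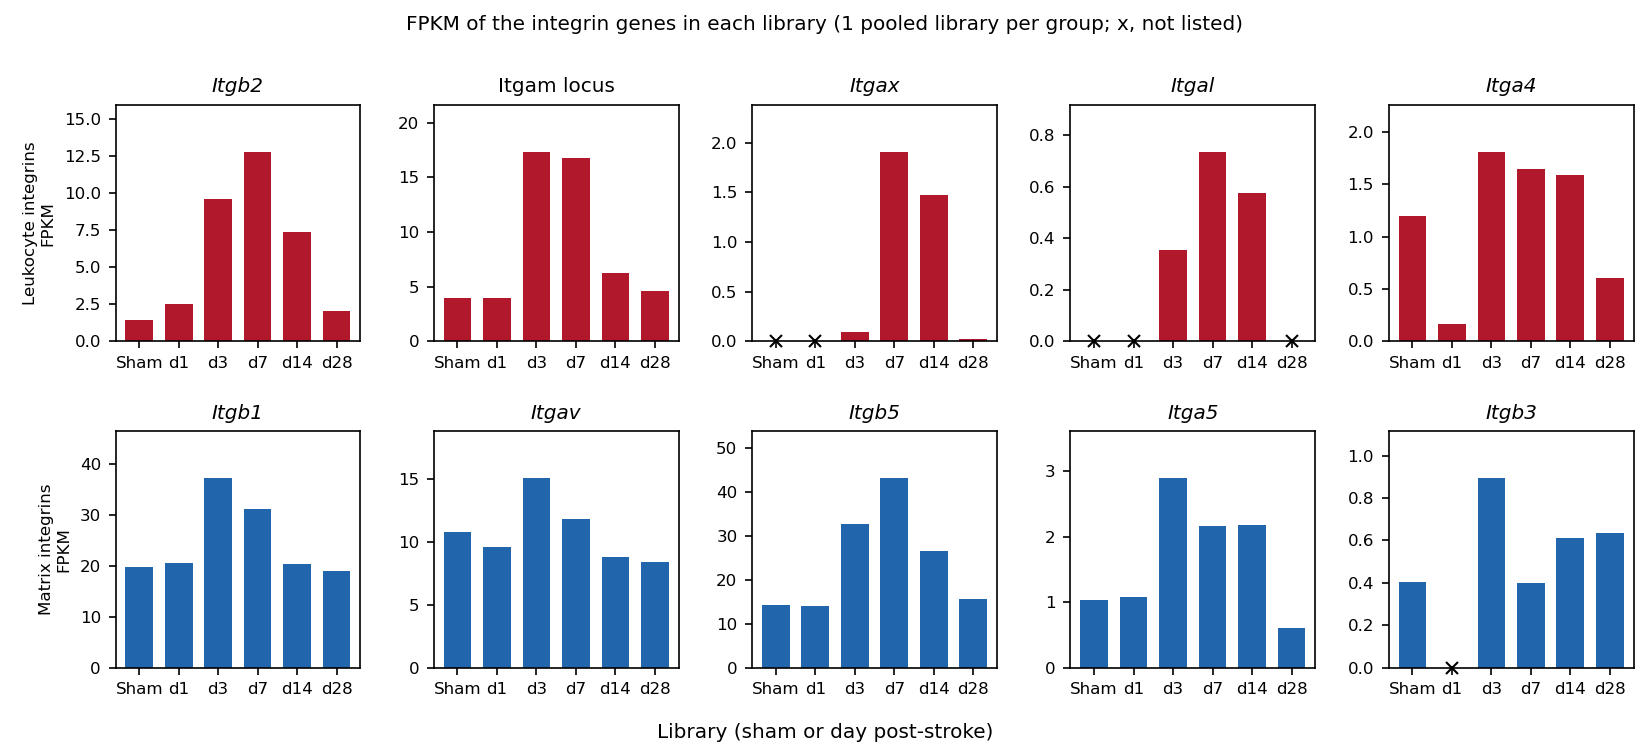
FPKM (y axes, linear and scaled separately) of 5 leukocyte integrin genes (top row, red, with Itgam by position) and 5 matrix integrin genes (bottom row, blue) in the sham library and the libraries of days 1 to 28 post-stroke (x axes), 1 pooled library per bar, with a cross where a gene was not listed. Itgb2, Itgax, Itgal and Itgb5 were highest on day 7, and the Itgam locus, Itga4, Itgb1, Itgav, Itga5 and Itgb3 on day 3.

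Within the beta2 family, the Itgam locus made up most of the summed alpha chains (Itgam locus, Itgal, Itgax and Itgad) in every library. Its share of their summed FPKM was 100% in sham, 72.7% on day 1, 97.5% on day 3, 86.4% on day 7, 73.2% on day 14 and 96.8% on day 28. The rest on day 1 was Itgad alone (1.49 FPKM), which was not listed in sham or on days 3 and 7. The sum itself was 3.92 FPKM in sham, 5.45 on day 1, 17.7 on day 3, 19.4 on day 7, 8.53 on day 14 and 4.79 on day 28. Itgb2 over this sum was 0.374 in sham, 0.463 on day 1, 0.541 on day 3, 0.658 on day 7, 0.870 on day 14 and 0.427 on day 28. The ratio was thus highest on day 14, where the Itgam locus was 6.24 FPKM, below its level on days 3 and 7 and above sham.

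Itga4 (ENSMUSG00000027009, chr2:79255426-79333123) had 1.20 FPKM in sham, 0.168 on day 1, 1.81 on day 3, 1.65 on day 7, 1.59 on day 14 and 0.602 on day 28. The log2 ratio to sham was -2.28 on day 1, 0.55 on day 3, 0.43 on day 7, 0.37 on day 14 and -0.89 on day 28, so its difference was past the threshold on day 1 and in no other library. None of its 7 events was listed in all 6 libraries. The day 1 value comes from 1 start, at chr2:79255401-79255856, that was not listed in sham, so the day 1 comparison sets different events side by side.

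Itgb1 (ENSMUSG00000025809, chr8:128685654-128733200) was the most abundant of the 10 genes in sham and on days 1, 3 and 28, and second to Itgb5 on days 7 and 14. Its level was 19.7 FPKM in sham, 20.6 on day 1, 37.2 on day 3, 31.3 on day 7, 20.4 on day 14 and 19.04 on day 28. Days 3 and 7 stood above the remaining libraries, which lay close together. The log2 ratio to sham was 0.06, 0.91, 0.66, 0.05 and -0.05 in order of day, below the threshold throughout, and on day 3 it lay at percentile 90.4 of all genes tested. An early end of Itgb1 made up 0.366% to 1.36% of its level in 5 libraries and 4.35% on day 28.

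The end of Itgb1 has alternative forms, and the annotated extra exon at chr8:128726983-128727063 brings a different cytoplasmic tail with its own stop. It is printed beside the last exon of the main form, from GENCODE M21 transcripts on GRCm38, from 20 bases before the junction to the last coding base before the stop, with the coding bases that differ by exon in capitals.
Itgb1 last exon: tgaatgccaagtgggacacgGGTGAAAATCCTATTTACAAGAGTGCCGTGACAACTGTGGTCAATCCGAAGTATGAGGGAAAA
Itgb1 extra exon: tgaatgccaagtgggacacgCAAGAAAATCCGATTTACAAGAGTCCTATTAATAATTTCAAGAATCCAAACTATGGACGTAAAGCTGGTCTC

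The form that skips this exon had 19.6 FPKM in sham, 20.5 on day 1, 36.7 on day 3, 31.1 on day 7, 20.3 on day 14 and 18.2 on day 28, which equalled the value of the end in the last exon in each library. No event that includes the exon was listed in any library, so the tail of the main form was the one listed at every time point.

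Itgb5 (ENSMUSG00000022817, chr16:33829665-33949338) had the largest difference from sham of the matrix genes on day 7, and shared that highest library with Itgb2. Its level was 14.4 FPKM in sham, 14.1 on day 1, 32.7 on day 3, 43.1 on day 7, 26.5 on day 14 and 15.5 on day 28. On day 7 it was 3.00 times the sham level and above Itgb1. The log2 ratio was -0.03 on day 1, 1.18 on day 3, 1.58 on day 7, 0.88 on day 14 and 0.11 on day 28, at percentile 95.2 of all genes tested on day 7.

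Exon 14 of Itgb5 is annotated with a longer end (chr16:33947715-33947881) and a shorter one (ending at 33947852). The end of the exon is printed from 40 bases before the shorter end to 40 bases into the next exon, from GENCODE M21 transcripts on GRCm38, with the 29 bases of the longer form in capitals.
Itgb5 longer form: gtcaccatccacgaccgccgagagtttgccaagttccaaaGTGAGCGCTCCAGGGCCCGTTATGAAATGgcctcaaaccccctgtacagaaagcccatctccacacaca
Itgb5 shorter form: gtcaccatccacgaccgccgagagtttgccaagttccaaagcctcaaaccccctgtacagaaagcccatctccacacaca

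The shorter form was not listed in sham or on day 28, made up 1.49% of Itgb5 on day 1, and was at 0.00303% or less on days 3, 7 and 14. The difference on days 3 and 7 was therefore carried by the longer form.

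Itgav (ENSMUSG00000027087, chr2:83724397-83806916), the alpha chain that Itgb5 pairs with, had 10.8 FPKM in sham, 9.58 on day 1, 15.1 on day 3, 11.8 on day 7, 8.84 on day 14 and 8.44 on day 28. Its log2 ratio to sham lay between -0.36 and 0.47, below the threshold in every library. Ends other than the last exon made up 18.4% of its level on day 1 and 12.5% on day 3, and 0.715% or less in the other libraries. The day 14 library listed no start for it.

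Transcript length moved with the ratios in the day 14 library. Across all genes tested there, Spearman's rho between the log2 ratio to sham and the longest transcript was -0.413, against -0.254 on day 1 and between -0.09 and 0.00 at the other days, across genes, which are not independent. The longest transcript is 2970 bases for Itgb2, 3282 for Itgb5, 4682 for Itgam and 7054 for Itgav. With each library divided by its trend over length, the day 14 log2 ratios were 2.14 for Itgb2, 0.77 for the Itgam locus, 0.80 for Itgb5 and -0.01 for Itgav, so the order of the 4 genes was Itgb2, Itgb5, Itgam locus, Itgav with and without this step.

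Itgb5 and Itgav differed in course. Itgb5 over Itgav was 1.33 in sham, 1.47 on day 1, 2.17 on day 3, 3.64 on day 7, 3.00 on day 14 and 1.84 on day 28. Of the summed beta chains that can pair with Itgav, Itgb5 held 34.3% in sham and 51.9% on day 7, and Itgb1 held 47.0% in sham and 37.6% on day 7. The ratio of Itgb8, whose pair with Itgav binds latent TGF-beta, to Itgav was between 0.650 and 0.944.

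**Figure D2:**
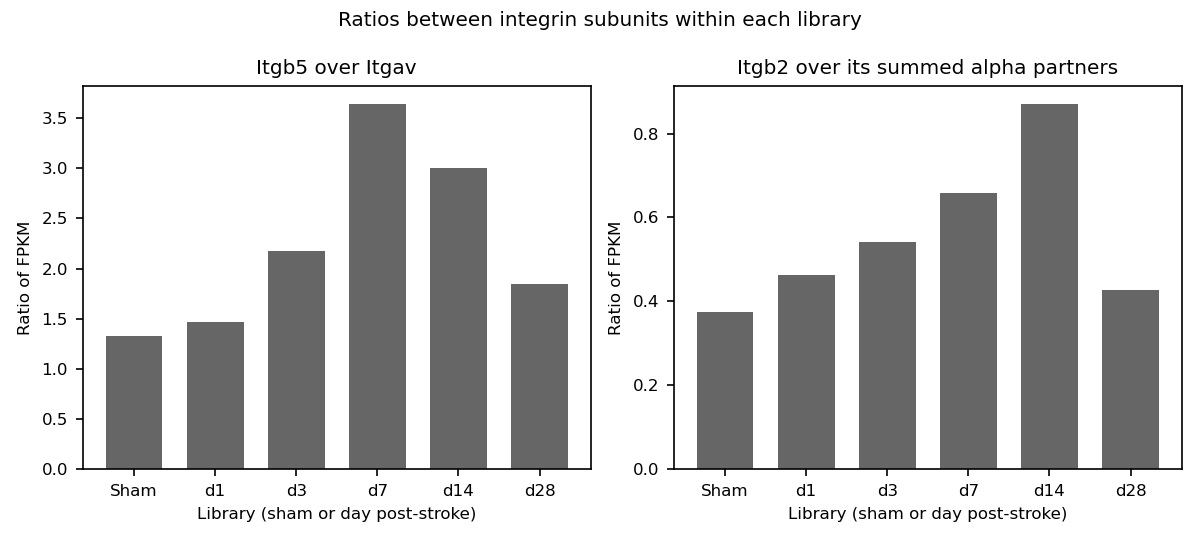
Ratio of FPKM (y axes, linear, from 0) of Itgb5 over Itgav (left) and of Itgb2 over its summed alpha partners, with the Itgam locus (right), in the sham library and on days 1 to 28 post-stroke (x axes), 1 pooled library per bar. The left ratio was highest on day 7 (3.64) and the right one on day 14 (0.870).

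Itga5 (ENSMUSG00000000555, chr15:103344286-103366763, minus strand) had 1.03 FPKM in sham, 1.07 on day 1, 2.89 on day 3, 2.16 on day 7, 2.18 on day 14 and 0.608 on day 28. The log2 ratio was 0.06 on day 1, 1.41 on day 3, 1.00 on day 7, 1.02 on day 14 and -0.67 on day 28, so days 7 and 14 lay at the threshold itself. With 1 FPKM added in place of 0.1, Itga5 was at 0.94 on day 3, 0.64 on day 7 and 0.65 on day 14, below the threshold on each. In sham its end event alone was listed, which limits what this ratio rests on. Itgb3 (ENSMUSG00000020689, chr11:104608000-104670476), a beta chain that can join Itgav, was not listed on day 1. Its level was 0.403 FPKM in sham, 0.893 on day 3, 0.400 on day 7, 0.610 on day 14 and 0.636 on day 28. It never reached 1 FPKM and was not tested against the threshold.

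Under their own identifiers, 0 of the 10 genes were higher than sham on day 1, 3 on day 3 (Itgb2, Itga5 and Itgb5), 4 on day 7 (with Itgax), 3 on day 14 (Itgb2, Itgax and Itga5) and 0 on day 28. Itgax was not listed in sham and reached 1 FPKM in the libraries where it was called, so the size of its ratio is set by the added constant. With 1 FPKM added in place of 0.1 it was still past the threshold on days 7 and 14. From summed transcript ends it was below 1 FPKM on day 7 and not listed on day 14, so neither call was made. Over genes listed in both libraries the counts were 3 on day 7 and 2 on day 14. Those that reached 1 FPKM and could be counted were 6 on days 1, 3 and 28 and 7 on days 7 and 14. The share of all genes tested that were higher was 5.11% on day 1, 8.54% on day 3, 8.53% on day 7, 8.97% on day 14 and 3.68% on day 28. Itga4 on day 1 was the single lower call, where 4.48% of all genes tested were lower, and no member was lower on day 3, 7, 14 or 28, against 2.53%, 2.12%, 6.92% and 2.79%. The Itgam locus passed the threshold on days 3 and 7 and would add 1 to each of these counts.

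**Figure D3:**
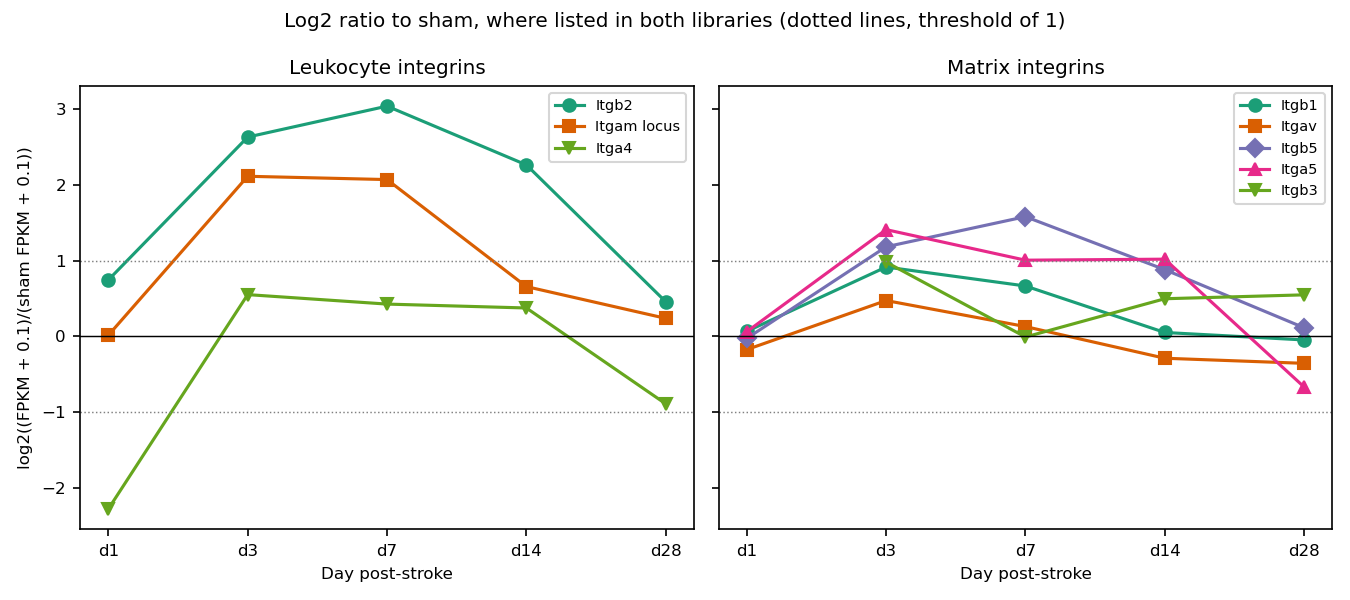
Log2((FPKM + 0.1)/(sham FPKM + 0.1)) (y axis) on days 1 to 28 post-stroke (x axis) for the leukocyte genes (left) and matrix genes (right), drawn where a gene was listed both in that library and in sham, which leaves out Itgax, Itgal and Itgb3 on day 1. Dotted lines mark the threshold of 1, which Itgb2 passed on days 3 to 14 (2.63, 3.04 and 2.26) and Itgb5 on days 3 and 7 (1.18 and 1.58).

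Set against each other, the median leukocyte gene was further above sham than the median matrix gene on days 7 and 14, which did not hold for every gene: Itga4 (0.43 and 0.37) lay below Itgb5 (1.58 and 0.88) on both days, and the Itgam locus (0.66) lay below Itgb5 on day 14. With the Itgam locus, 5 genes had a level of at least 1 FPKM in all 6 libraries: Itgb2 and the Itgam locus against Itgb1, Itgav and Itgb5. The median log2 ratio of the pair minus that of the matrix genes was 1.46 on day 3 and 1.41 on day 14, and on day 7 each of the pair (3.04 and 2.07) was above each of the matrix genes (0.13 to 1.58). Over the 9 genes with values, with a gene not listed taken as 0, the leukocyte median was 0.00 on day 1, 1.57 on day 3, 3.05 on day 7, 2.51 on day 14 and 0.13 on day 28, and the matrix median was -0.03, 0.98, 0.66, 0.50 and -0.05. The median of all genes tested was between 0.01 and 0.10. These leukocyte medians lean on Itgax and Itgal, which were not listed in sham, so their size is set by the added 0.1: with 1 added instead, the difference of the medians on day 3 was -0.49 rather than 0.59.

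In summed level, which does not depend on the added constant, the leukocyte genes with the Itgam locus were 12.5% of the FPKM of all 10 genes in sham, 12.8% on day 1, 24.7% on day 3, 27.6% on day 7, 22.8% on day 14 and 14.2% on day 28. Itgb2 over Itgb1 was 0.0745 in sham, 0.122 on day 1, 0.258 on day 3, 0.409 on day 7, 0.364 on day 14 and 0.108 on day 28. The matrix genes thus remained the larger part in every library, with the leukocyte share highest on day 7.

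Whole cortex holds many cell types, and in such bulk samples fewer cells of a type and less RNA per cell cannot be told apart. Among 7 microglia markers the summed level was 113 FPKM in sham, 97.8 on day 1, 241 on day 3, 307 on day 7, 202 on day 14 and 112 on day 28. Among 8 macrophage or monocyte markers it was 8.62 in sham, 11.5 on day 1, 40.1 on day 3, 55.2 on day 7, 34.6 on day 14 and 10.1 on day 28. Both sums were highest on day 7, the library where Itgb2, Itgax, Itgal and Itgb5 were highest, and their part in the integrin values was not tested.

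The neutrophil list, with 6 of its 9 markers listed in any library, held more than 1 course. It summed to 1.37 FPKM in sham, 18.8 on day 1, 5.61 on day 3, 6.56 on day 7, 12.3 on day 14 and 2.22 on day 28, and its markers Mpo, Elane and Ly6g were not listed. The day 1 sum was mostly S100a8 (6.18 FPKM) and S100a9 (10.1), and in that library the Itgam locus was at 3.96 FPKM and Itgb2 at 2.52. On day 14 S100a8 was at 3.84 FPKM and S100a9 at 5.32. Cxcr2 (0.294 FPKM) and Ngp (0.792) were listed on day 1 alone, and Camp on days 7 and 14 (0.133 and 0.121). Csf3r, the marker of this list found in all 6 libraries, was at 1.30 FPKM in sham, 1.37 on day 1, 4.03 on day 3, 5.74 on day 7, 3.04 on day 14 and 2.22 on day 28, with day 7 as its highest library, as for Itgb2. T cell markers summed to between 1.49 and 5.42 FPKM with Cd3g, Cd8a, Lck and Cd2 not listed. Most of this sum was Cd4 in every library, at 2.56 FPKM in sham, 1.49 on day 3 and 4.43 on day 14. Cd3e and Cd3d were not listed in sham or on days 1 and 3, and were at 0.131 and 0.479 FPKM on day 14. Trac was at 0.644 FPKM in sham and 0.387 on day 14.

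For the matrix genes, pericyte or fibroblast markers summed to 44.0 FPKM in sham, 42.5 on day 1, 98.1 on day 3, 104 on day 7, 99.6 on day 14 and 41.8 on day 28. On day 7 the higher level lay in Col1a1 (2.46 FPKM in sham and 21.2), Col1a2 (6.90 and 31.8), Dcn (13.1 and 24.0) and Lum (1.37 and 6.18), while Rgs5 was at 17.0 and 16.2 and Pdgfrb at 3.18 and 4.30. Col1a1 and Col1a2 are also in the list of matrix ligands. Endothelial markers summed to 21.4 on day 3 and to between 10.6 and 12.3 in the other libraries, and Itgb1, Itgav and Itga5 were also highest on day 3. Astrocyte markers were at 281 in sham and highest on day 3 (949), most of it Gfap (85.8 in sham and 698), while Aldh1l1 was at 24.5 and 25.2, Slc1a3 at 144 and 176 and Aqp4 at 27.0 and 50.6. Neuron markers were 1392 in sham and between 902 and 1277 after stroke, and all 4 of these markers were listed in every library. The part of these cells in the integrin values was not tested. As with Itgam, Pdgfra, Cx3cr1 and Lck had events inside their spans under identifiers of other genes, so these sums miss them in part.

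**Figure D4:**
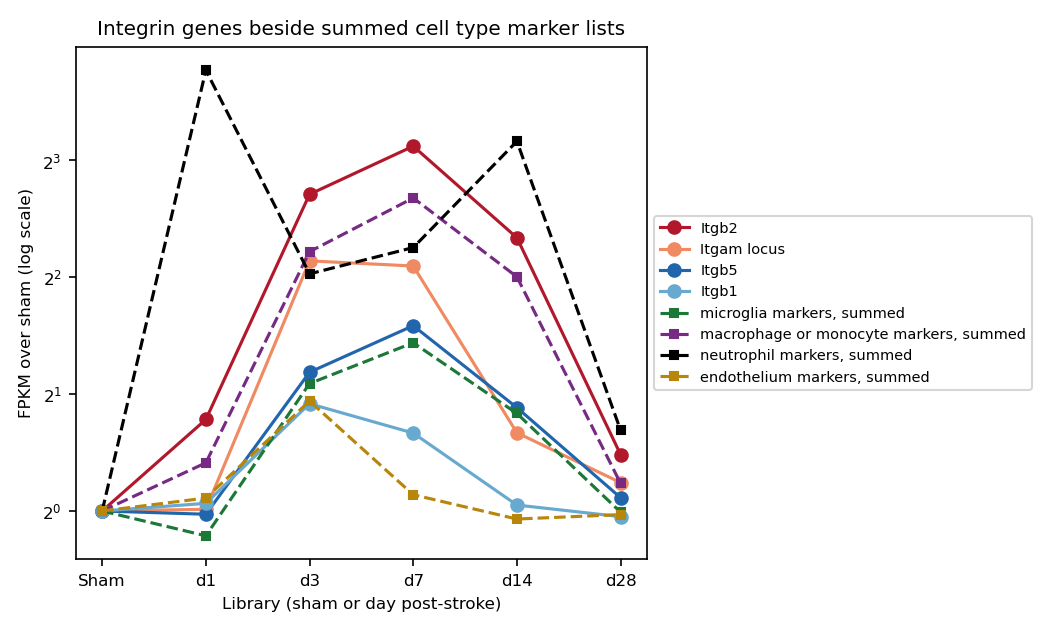
FPKM over the sham FPKM (y axis, log scale to base 2) of Itgb2, the Itgam locus, Itgb5 and Itgb1 (solid lines) and of the summed microglia, macrophage or monocyte, neutrophil and endothelium markers (dashed lines) in sham and on days 1 to 28 post-stroke (x axis), 1 pooled library per point. The microglia and macrophage lines were highest on day 7 (sums of 307 and 55.2 FPKM) and the neutrophil line on day 1 (18.8 FPKM).

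The genes whose log2 ratios over the 5 days were nearest to those of Itgb2, by root mean square difference among 10856 genes listed in all libraries with at least 1 FPKM in sham, were Ly86 (0.234), Grn (0.252), Gusb (0.255), Ctsd (0.314) and C1qc (0.322). Ly86 is a partner of a Toll-like receptor homologue, Grn, Gusb and Ctsd encode lysosomal proteins, and C1qc is a chain of complement C1q. Ly86 was at 6.77 FPKM in sham and 46.4 on day 7, and C1qc at 16.5 and 117. Nearest to Itgb1 were Lims1 (0.0897), which encodes the PINCH adaptor of integrin adhesions, Znrf2 (0.113), Fnip2 (0.119), Brip1os (0.120) and Sh3pxd2b (0.126). Lims1 was at 5.85 FPKM in sham, 10.03 on day 3 and 9.10 on day 7.

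Of the 16 remaining integrin subunit genes, 14 were listed. Among those tested, 1 of 9 tested was higher on day 3 and 1 of 10 on day 7, in both cases Itga6, an alpha chain of laminin receptors, at 3.45 FPKM in sham, 7.37 on day 3 and 7.21 on day 7 (log2 ratios of 1.07 and 1.04). Both calls were lost with 1 FPKM added and from summed transcript ends. On day 1 the 1 higher gene of 10 was Itgad, a further beta2 partner with 1.49 FPKM on day 1 that was not listed in sham. The Itgad call was also lost from summed transcript ends. Over all genes tested 5.11% were higher on day 1, 8.54% on day 3 and 8.53% on day 7. These counts of 1 were therefore near the shares of all genes. Itga1 was at 0.646 FPKM in sham and 1.10 on day 7, Itga7 at 2.12 and 2.56, Itga8 at 1.32 and 0.999, and Itga2b, the platelet alpha chain, at 1.15 and 1.06.

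Ligands of the leukocyte integrins were higher in 1 of 8 tested genes on day 1, 3 of 9 on days 3, 7 and 14, and 0 of 7 on day 28. The shares of all genes tested that were higher were 5.11%, 8.54%, 8.53%, 8.97% and 3.68% in order of day. With so few genes tested, the counts on days 1 and 28 cannot be told apart from these shares. Icam1, the main ligand of LFA-1 and Mac-1, was at 0.905 FPKM in sham, 2.66 on day 1, 3.00 on day 3, 3.13 on day 7, 3.65 on day 14 and 0.647 on day 28, and its day 1 call was lost with 1 FPKM added in place of 0.1. C3, whose fragment iC3b is bound by Mac-1, was not listed in sham or on day 1 and had 1.32 FPKM on day 3, 1.115 on day 7, 8.25 on day 14 and 0.607 on day 28. F11r, the junctional protein JAM-A, was at 3.32 in sham, 7.67 on day 7 and 7.71 on day 14. Thy1 (log2 ratio 0.01 on day 7) and Jam3 (0.05) had the smallest differences.

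Ligands of the matrix integrins were higher in 4 of 23 tested genes on day 1, 15 of 24 on day 3, 12 of 26 on day 7, 10 of 25 on day 14 and 1 of 23 on day 28, and 1 of 24 was lower on day 3. Over all genes tested 5.11%, 8.54%, 8.53%, 8.97% and 3.68% were higher in order of day, and 2.53% were lower on day 3. The 1 higher gene on day 28 and the 1 lower gene on day 3 were therefore near the shares of all genes. With 1 FPKM added, 9 were higher on day 3 and 6 on day 14, and from summed transcript starts 4 were higher and 5 lower on day 14. Spp1, osteopontin, a ligand of the Itgav receptors, was at 7.42 FPKM in sham, 24.3 on day 1, 323 on day 3, 783 on day 7, 151 on day 14 and 18.5 on day 28, and it was the gene still past the threshold on day 28 (log2 ratio 1.31). Spp1 and Itgb5 shared day 7 as their highest library, with log2 ratios of 6.70 and 1.58 there. Col3a1, a fibrillar collagen, was at 1.04 in sham and 21.6 on day 7, and Postn, the matricellular protein periostin, at 0.208 and 3.61. Mfge8, which bridges dying cells to the Itgav receptors, was at 68.0 in sham and 47.8 on day 7 (log2 ratio -0.51), and Ccn2 at 10.5 and 8.63 (-0.28).

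Inside the cell, talin and kindlin proteins switch integrins on. Of the activation and adhesion adaptors, 2 of 23 tested were higher and 1 lower on day 1, 5 higher on day 3, 4 higher on day 7, 2 higher and 1 lower on day 14 and 1 higher on day 28. Over all genes tested 5.11% were higher and 4.48% lower on day 1, 8.97% and 6.92% on day 14, and 3.68% higher on day 28. The counts of 2 and 1 on those days were therefore near the shares of all genes. On days 3 and 7, where 5 and 4 of the adaptors were higher, the shares of all genes tested were 8.54% and 8.53%. Fermt3, the kindlin of blood cells, was at 0.842 FPKM in sham, 2.41 on day 1, 4.21 on day 3, 6.85 on day 7, 4.93 on day 14 and 2.10 on day 28, past the threshold in all 5 stroke libraries, although with 1 FPKM added it was not past it on days 1 and 28. Parvg, the parvin of blood cells, was at 1.44 in sham and 5.19 on day 7, and Apbb1ip, which links Rap1 to talin, at 2.00 and 6.20. Sharpin, an inhibitor of integrin activation, was at 15.9 in sham and 9.45 on day 7 (log2 ratio -0.74), and Rap1a at 15.8 and 11.8 (-0.42).

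The kinases and ITAM adaptors that act downstream of beta2 integrins were higher in 1 of 9 tested genes on day 1, 8 of 11 on day 3, 10 of 11 on day 7, 7 of 11 on day 14 and 0 of 8 on day 28, where 5.11%, 8.54%, 8.53%, 8.97% and 3.68% of all genes tested were higher. With 1 FPKM added the count was 0 on day 1 and 3 on day 14. Tyrobp, the DAP12 adaptor, was at 21.5 FPKM in sham, 31.6 on day 1, 82.0 on day 3, 146 on day 7, 117 on day 14 and 31.7 on day 28. Fcer1g, its Fc receptor counterpart, was at 8.60 in sham and 51.2 on day 7, and Fyb, the adaptor ADAP, at 0.0873 and 5.56. Plcg2 was at 1.01 in sham and 2.44 on day 7. Src, the gene of this list below the threshold on day 7, was at 20.8 in sham and 19.6 there. Of the genes named from this list and the adaptors, Tyrobp, Fcer1g, Fyb, Fermt3, Parvg and Apbb1ip had day 7 as their highest library, as Itgb2 did. Plcg2 and Sharpin were highest on day 3, Src on day 1 and Rap1a in sham.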

How the data were processed

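RNA was poly(A)-selected and sequenced strand-specifically in paired reads of 150 bases, to 33.6 M reads for a sample on average, as the labels state. The deposited values are FPKM per event that the authors made on mm10. The submitters' processing notes name Trimmomatic 0.30, HISAT2 2.0.1 and HTSeq 0.6.1, and the event caller is not given in the sources used here. Depth per library is unknown, so no interval is given.

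From the deposited FPKM, gene values and log2 ratios with 0.1 added were computed (Python 3.11.15, numpy 2.4.6, pandas 2.3.3). Genes with at least 1 FPKM in either library were tested against a log2 threshold of 1, and the scripts were tested on simulated data. Gene names came from the identifiers, of which 15411 of 15441 matched GENCODE M21. The Itgam locus was defined by position.

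Named from each list were the 3 largest and 2 smallest log2 ratios at day 7 and any gene past the threshold at day 28, and for Itgb2 and Itgb1 the 5 nearest patterns. The members and lists were chosen with earlier results of these data known. Alternatives varied the added constant, the gene value, the filter, the threshold, the scaling and the grouping. Protein sequences were not used here.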

Additional observations from a re-analysis of the deposited data

How the results depend on the processing

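No paired analysis was possible because each group was 1 pooled library. Over 13 alternatives the difference of the leukocyte and matrix medians was -0.01 to 0.41 on day 1, -0.89 to 1.90 on day 3, 0.53 to 3.9997 on day 7, 0.78 to 3.52 on day 14 and 0.04 to 0.46 on day 28, and it was above 0 in 12, 11, 13, 13 and 13 of them.

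With 1 FPKM added, the leukocyte median was 0.39 on day 3, 1.17 on day 7 and 0.98 on day 14, and its difference from the matrix median -0.49, 0.53 and 0.78. With 0.01 added, the medians were 3.03, 4.67 and 4.10 and the differences 1.90, 3.9997 and 3.52. From summed transcript starts the leukocyte median was 1.63 on day 7 and 1.71 on day 14, with a difference of 0.97 on day 7. From summed ends it was 0.10 on day 3 and 1.32 on day 14, with differences of -0.89 and 0.82. With Itga4 among the matrix genes the day 3 median was 2.19 and the difference 1.24. The summed FPKM gave differences of 1.17 on day 3 and 1.69 on day 7. Over genes at 1 FPKM or more in all 6 libraries, chosen after seeing the data, the leukocyte median was 2.37 on day 3 and 1.46 on day 14, with differences of 1.46 and 1.41.

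Members lower on day 1 were 0 with 1 FPKM added or a filter of 5 FPKM, and 2 with no filter. Starts gave 1 lower on day 3 and 1 on day 14, and ends 1 on day 28. Members higher were 2 on day 7 and 1 on day 14 with a filter of 5 FPKM, and 1 on day 3 and 2 on day 7 with a threshold of 2. Among the lists, with 1 FPKM added the genes higher were 0 of the leukocyte ligands on day 1, 0 of the adaptors on days 1 and 28, 2 on day 3 and 1 on day 14, 0 of the kinases on day 1 and 3 on day 14, 0 of the other integrin subunits on days 3 and 7, and 9 and 6 of the matrix ligands on days 3 and 14. Summed starts gave 4 matrix ligands higher and 5 lower on day 14. The cause of these shifts was not tested. FPKM without read counts limits what the genes under 1 FPKM can show.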
